A study of Mus musculus with 30 samples.

Results

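The genes described here encode interleukin and inflammasome proteins of microglia: the cytokines Il1a, Il1b, Il18, Tnf, Il12b, Il6 and Il10, the receptor antagonist Il1rn, the inflammasome sensor Nlrp3 and the protease Casp1. They were taken by gene symbol from a table of 14225 transcripts (13483 symbols), and 9 of the 10 had a row, each with a single transcript. Il6 had no row and was not analysed here. The values are TPM, a transcript abundance that is scaled to transcript length and to the total of the library, in 30 libraries of 10 groups with 3 libraries each.

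All libraries came from CD11b-positive cells bound to magnetic beads from whole brains of C57BL/6J offspring. Pregnant dams had received saline (Saline) or, for maternal immune activation (MIA), poly(I:C), an artificial RNA duplex that stands in for a virus. Saline and MIA offspring were sampled at E17, P7, P20 and P60. At P60 each was divided into control chow (CTRL) and microglial repopulation (MG-REP), in which chow with the CSF1R inhibitor PLX5622, fed from weaning, was followed by control chow, so that the cells sampled had regrown after depletion. A library held a pooled litter at E17, 3 pooled brains at P7, and 1 brain at P20 and P60. The 3 libraries of a group are labelled as separate samples, and the p-values use a spread within groups that is pooled over all 10 groups. The dam received the injection, and the labels do not give the litter of a library. Libraries of a group at P7, P20 or P60 may thus share a dam, and the p-values do not account for this.

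IL-1α and IL-1β bind the same receptor and start NF-κB signalling, while the protein encoded by Il1rn occupies that receptor without signalling. Inflammasome sensors such as NLRP3 activate caspase-1, which cuts the precursors of IL-1β and IL-18, so the transcript level of Il1b is not a measure of released cytokine. TNF and the IL-12 p40 subunit (Il12b) are products of activated myeloid cells, and IL-10 restrains them.

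The positions of these genes are on GRCm38.p6. Il1a (NM_010554, chr2:129299609-129310186), Il1b (NM_008361, chr2:129364569-129371164) and Il1rn (NM_001039701, chr2:24336860-24351491) are on chromosome 2. Il18 (NM_008360, chr9:50554700-50581841) and Casp1 (NM_009807, chr9:5298517-5307281) are on chromosome 9. Nlrp3 (NM_145827, chr11:59541569-59566955) and Il12b (NM_001303244, chr11:44400063-44414677) are on chromosome 11. Tnf (NM_013693) is at chr17:35199367-35202007 and Il10 (NM_010548) at chr1:131019845-131024970.

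The start-site regions of 4 cytokine genes, Il1a, Il1b, Tnf and Il12b, are shown because most of the results below turn on their transcript levels. Each sequence is 150 bases of RefSeq on GRCm38.p6, from 100 bases before the annotated start to 50 after it, with the letters TATAAA in capitals.
Il1a, chr2:129309923-129310072, minus strand: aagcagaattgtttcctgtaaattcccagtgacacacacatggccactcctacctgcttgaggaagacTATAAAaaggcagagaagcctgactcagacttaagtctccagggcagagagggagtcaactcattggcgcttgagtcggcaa
Il1b, chr2:129371090-129371239, minus strand: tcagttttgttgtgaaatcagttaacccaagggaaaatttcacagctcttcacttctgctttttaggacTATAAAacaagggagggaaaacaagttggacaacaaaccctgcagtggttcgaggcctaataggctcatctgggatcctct
Tnf, chr17:35201958-35202107, minus strand: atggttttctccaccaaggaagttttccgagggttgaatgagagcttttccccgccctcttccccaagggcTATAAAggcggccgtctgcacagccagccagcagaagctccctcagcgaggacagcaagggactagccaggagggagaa
Il12b, chr11:44399963-44400112, plus strand: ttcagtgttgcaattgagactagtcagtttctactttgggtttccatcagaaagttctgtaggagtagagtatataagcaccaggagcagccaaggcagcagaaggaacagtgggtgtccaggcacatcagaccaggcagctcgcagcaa
TATAAA lay at bases -32 to -27 in Il1a, -31 to -26 in Il1b and -29 to -24 in Tnf. Il12b held no exact match to these letters on either strand in its 300-base window. Of 32851 promoter windows of 300 bases in the table, 13.6% held TATAAA on either strand. The AP-1 letters TGANTCA were found in Il1a, Il1rn and Il6, against 7.81% of all windows. These matches describe the letters only, and the expression data do not bear on whether a factor binds there.

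The deposited values give an estimated 8050000 to 12850000 counted reads per library, and libraries of 1 group correlated at Pearson's r of 0.956 to 0.993 across transcripts on the log2(TPM + 1) scale. Of 10 microglial markers, 9 had a row, and their summed TPM was between 17214 and 54968 in every library. A Saline + MG-REP library, number 2, carried neutrophil transcripts: the summed monocyte and neutrophil markers reached 5198 TPM there, against 92.9 and 361 TPM in the other two and 753 to 890 TPM in Saline + CTRL. The first E17 MIA library had summed neuronal markers of 1206 TPM, against 159 to 336 TPM in E17 Saline. Xist, the X-inactivation RNA, was at 159 to 174 TPM in all 6 MG-REP libraries and 172 to 193 TPM in all 6 P20 libraries, while among CTRL libraries it was high only in the first of each group (124 and 140 TPM) and at most 0.29 TPM in the other 4. Ddx3y, a Y-linked gene, was at 103 to 135 TPM in those 4 and at most 0.28 TPM in the other P20 and P60 libraries. These sex-linked transcripts thus differed between MG-REP and CTRL and between P20 and P60 CTRL, and a fit with log2 Xist as a covariate is given where it changes a call.

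**Figure D1:**
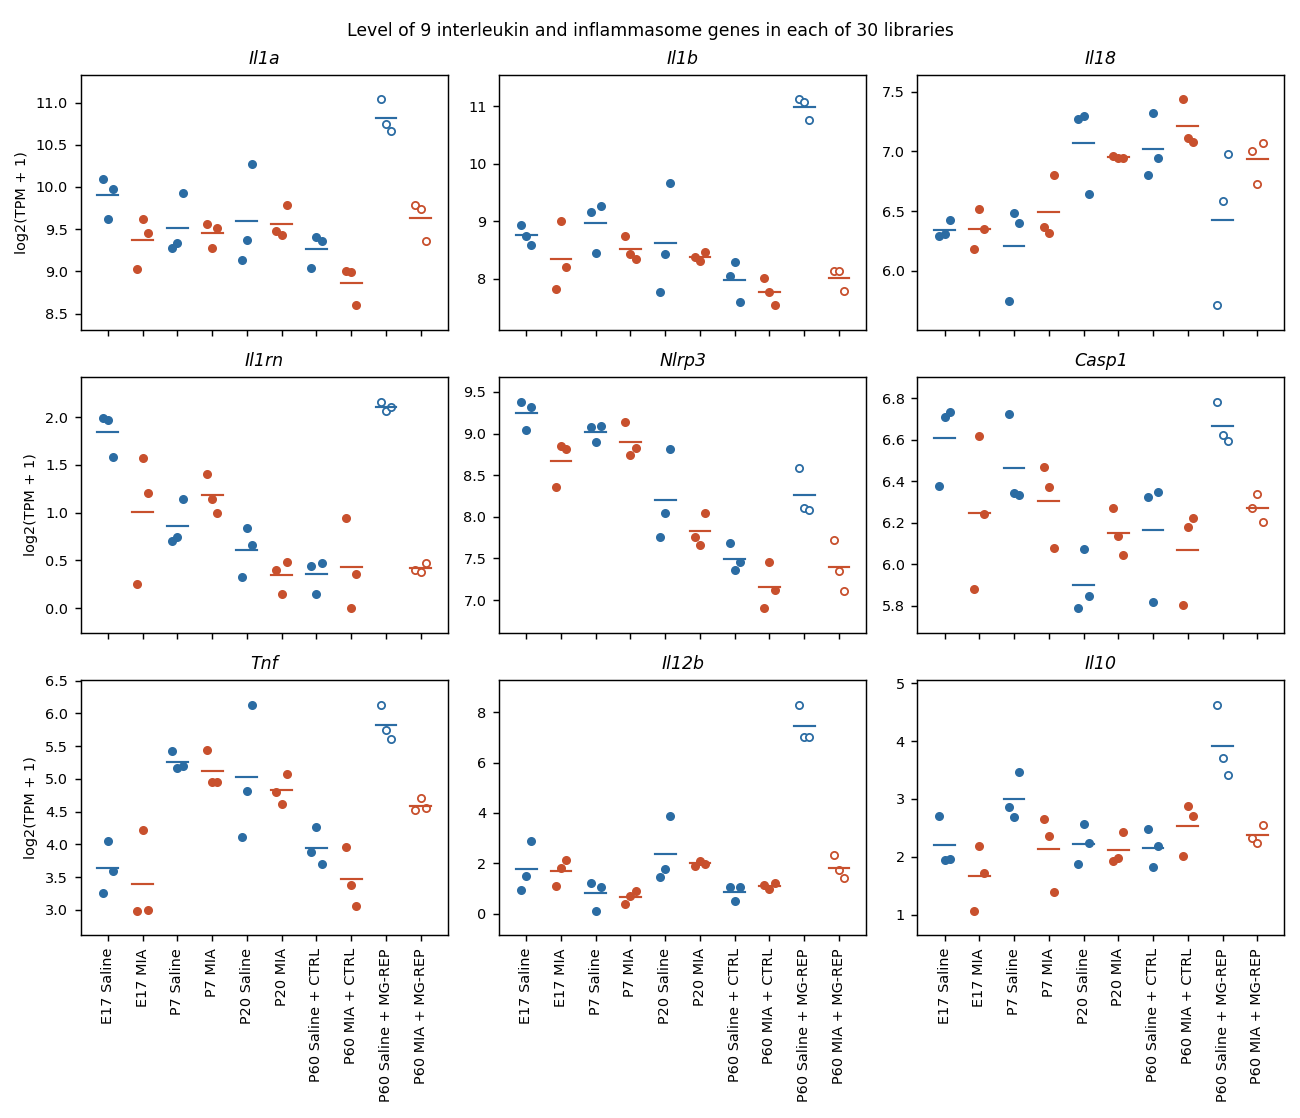
Level of each of the 9 genes in every library, as log2(TPM + 1), with 1 panel a gene and its own vertical range. Points are libraries, lines are means of 3, blue is Saline, red is MIA, and open points are MG-REP. The 3 Saline + MG-REP libraries stand above all other libraries for Il1b (1744 to 2228 TPM), Il1a (1623 to 2104 TPM), Il1rn and Il12b.

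The IL-1 cytokines were among the most abundant transcripts of these cells. Over the 30 libraries Il1a averaged 836 TPM, rank 131 of 14225 transcripts, and Il1b averaged 523 TPM, rank 233. Nlrp3 followed at 336 TPM, then Il18 at 107.59 TPM, Casp1 at 78.5 TPM, Tnf at 26.3 TPM and Il12b at 21.0 TPM. The Il12b mean was carried by Saline + MG-REP (189.7 TPM), and its means in the other groups were only 0.603 to 6.01 TPM. Il10 at 5.20 TPM and Il1rn at 1.11 TPM were low. Il1b was thus far above the Il1rn row. The ratio of Il1b to Il1rn was 147 to 193 in E17 Saline and higher in every other library with Il1rn above 0. That row is 1 of 3 curated Il1rn transcripts and the others had no row. These ratios thus do not give the level of the whole Il1rn gene.

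The first comparison followed the genes through development in Saline offspring. Between E17 and P7, 2 of 9 changed, against 4.32% of all transcripts by limma at an adjusted p under 0.05 (3.09% higher and 1.23% lower). Tnf was at 8.56, 15.6 and 11.1 TPM in the E17 libraries and at 42.1, 34.7 and 35.5 TPM at P7. The groups did not overlap, as in 27.9% of all transcripts, and Tnf rose by 1.62 ± 0.36 (SE) on the log2(TPM + 1) scale (limma adjusted p = 0.0109). Il1rn was at 2.98, 2.91 and 1.99 TPM at E17 and 0.63, 0.67 and 1.21 TPM at P7, again without overlap, and fell by 0.98 ± 0.25 (limma adjusted p = 0.0236). These values rest on an estimated 18 to 28 reads a library at E17 and 5 to 10 at P7. The Il1rn row may have passed the authors' count filter, set over at least 3 libraries, through E17 Saline. This call, 1 of the 2, is thus not independent of that filter. Neither call held in every fit that left out 1 library: Il1rn had adjusted p between 0.0775 and 0.108 without E17 libraries 1 or 2 or P7 libraries 1 or 2, and Tnf had 0.0608 without the first E17 library and 0.0556 without the first P7 library. In MIA offspring Tnf rose over the same step by 1.71 ± 0.36 (limma adjusted p = 0.0108), the only 1 of 9 called, against 2.39% of all transcripts (1.59% higher and 0.801% lower). Its E17 MIA values were 6.93, 17.5 and 7.01 TPM and its P7 MIA values 42.3, 30.01 and 29.8 TPM. That call was lost without E17 MIA library 1 (adjusted p = 0.0685) or 3 (0.0553), without P7 MIA library 1 (0.0631), and in a fit of these groups alone (0.302).

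Between P7 and P20 in Saline offspring Nlrp3 and Casp1 fell and Il18 and Il12b rose. These 4 of 9 calls, 2 in each direction, are a share near that of all transcripts (36.2% called, 16.1% higher and 20.1% lower), so the count is not a result about these genes. Nlrp3 was at 541, 475 and 546 TPM at P7 and 215, 263 and 449 TPM at P20, and it fell by 0.82 ± 0.22 (limma adjusted p = 0.00459). Casp1 was at 105, 80.2 and 79.6 TPM at P7 and 54.3, 66.2 and 56.5 TPM at P20, and it fell by 0.56 ± 0.17 (limma adjusted p = 0.0115). The P20 libraries lay below all P7 libraries for both genes, and 46.6% of all transcripts had no overlap in this step. Il18, whose product needs caspase-1 cleavage, was at 52.7, 88.3 and 83.4 TPM at P7 and 154, 157 and 99.1 TPM at P20, and it rose by 0.86 ± 0.24 (limma adjusted p = 0.00669). Il18 and Casp1 were no longer called without the first P7 library (adjusted p = 0.0627 and 0.0796), nor was Casp1 with median-ratio scaling (0.0728) or quantile normalization (0.0526). Il12b rose by 1.57 ± 0.51 (limma adjusted p = 0.0183), and this rested on 1 library: its P20 values were 1.76, 2.45 and 13.8 TPM, and without the third the rise was 0.81 (adjusted p = 0.180). It was also not called without the second P7 library (0.101) or when only these groups were fitted (0.0781).

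The third P20 Saline library was high for several of the genes at once. It had 811 TPM of Il1b against 219 and 343 TPM in the other two, 1235 TPM of Il1a against 563 and 662 TPM, and 69.2 TPM of Tnf against 16.4 and 27.0 TPM. Its summed monocyte and neutrophil markers, at 318 TPM, lay between those of the other P20 Saline libraries (247 and 647 TPM), and its summed immediate early transcripts, at 21352 TPM, were close to theirs (21878 and 22312 TPM). Without it Il1b fell from P7 to P20 by 0.86 (adjusted p = 0.0197), against a difference of -0.34 with it (0.437). P20 MIA libraries showed no such spread, with Il1b at 331, 317 and 354 TPM.

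In MIA offspring 3 of 9 changed from P7 to P20, against 35.6% of all transcripts (13.1% higher and 22.5% lower). That share is near that of all transcripts, so the count is not a result about these genes. Without overlap, 2 of the 9 genes were higher and 2 lower at P20, the 3 called genes among them, against 50.3% of all transcripts in either direction. Nlrp3 fell by 1.08 ± 0.22 (limma adjusted p = 0.000399), from 562, 427 and 453 TPM to 216, 202 and 264 TPM. Il1rn fell by 0.84 ± 0.25 (limma adjusted p = 0.0112), with P20 values of 0.11 to 0.40 TPM that rest on an estimated 1 to 3 reads a library, and was not called without the first P7 library (0.0541) or the second P20 library (0.0538). Il12b rose by 1.33 ± 0.51 (limma adjusted p = 0.0434), a call that was lost when any 1 of the 6 libraries was left out (adjusted p from 0.0587 to 0.122) and with the Xist covariate (0.0515).

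From P20 to P60 with control chow, none of the 9 genes was called in Saline offspring by limma, although 3 had an unadjusted p under 0.05 and 3.51% of all transcripts were called (1.02% higher and 2.49% lower). Nlrp3 was at 204, 164 and 174 TPM at P60, below all P20 libraries (19.4% of all transcripts had no overlap), with a difference of -0.70 ± 0.22 (limma adjusted p = 0.0699). Without the first P20 library Nlrp3 (adjusted p = 0.0270) and Tnf (0.0235) were called lower. With the replicate number as a block, Nlrp3 (adjusted p = 0.0476), Tnf (0.0291) and Il12b (0.0488) were called lower. The 3.51% is from the fit without that block, and over all ages the replicate number did not pair the samples. In MIA offspring Tnf fell by 1.36 ± 0.36 (limma adjusted p = 0.0432), from 27.0, 23.5 and 32.7 TPM to 14.5, 9.41 and 7.35 TPM, 1 of 9 called against 2.60% of all transcripts (1.03% higher and 1.57% lower), in a step where 31.2% had no overlap. It was not called with the Xist covariate (adjusted p = 0.241), with median-ratio scaling (0.0535), or without any of 5 of the 6 libraries (0.0898 to 0.164). Xist-high libraries make up all of P20 and 1 of 3 in each P60 CTRL group, and sex and age cannot be told apart for most of these libraries.

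The order of groups differed between genes. Nlrp3 was highest in E17 Saline (610 ± 73 TPM, SD, n = 3) and lowest in P60 MIA + CTRL (144 ± 28 TPM), with no gap between neighbouring groups in that order. Il18 ran the other way, from 74.8 ± 19 TPM in P7 Saline to 148 ± 21 TPM in P60 MIA + CTRL, also with neighbours that overlapped throughout. For Il1a, Il1b, Il1rn and Il12b the top group was Saline + MG-REP, and all its libraries were above those of the next group. Casp1, Tnf and Il10 had the same top group, but its libraries overlapped those of the next.

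The second comparison asked whether MIA changed these genes at each age. No gene of the 9 was called at E17, P7, P20 or P60 with control chow, and limma called 0 of 14225 transcripts (0%) in each of these comparisons. At an unadjusted p under 0.05 there were 585, 335, 457 and 256 transcripts at the 4 ages, and 4, 1, 0 and 0 of the 9 genes.

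At E17 the 4 genes were Il1rn, Nlrp3, Il1a and Casp1, all lower in MIA, each with an adjusted p of 0.754. Nlrp3 was at 327, 460 and 449 TPM in MIA against 666, 527 and 637 TPM in Saline, without overlap (as in 6.05% of all transcripts), a difference of -0.57 ± 0.22. Il1rn, whose row may have passed the authors' count filter through E17 Saline, was at 0.19, 1.98 and 1.30 TPM against 2.98, 2.91 and 1.99 TPM. The lowest values of both came from the first E17 MIA library, the 1 with high neuronal markers and the lowest summed microglial markers of that age (17214 TPM, against 23654 to 29978 TPM in E17 Saline). The part of these other cells in the difference was not tested. At P7 the single gene was Il10, at 5.29, 4.13 and 1.63 TPM in MIA and 6.23, 5.42 and 10.1 TPM in Saline, a difference of -0.87 ± 0.36 with an adjusted p of 1.

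**Figure D2:**
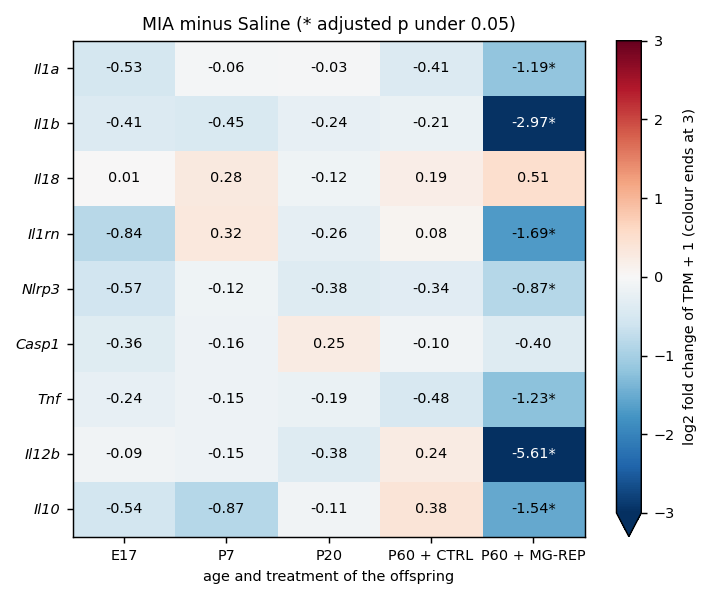
Difference between MIA and Saline offspring (log2 fold change of TPM + 1) for each gene at each age and treatment, with asterisks where the limma adjusted p is under 0.05. Asterisks appear only in the P60 + MG-REP column, where Il12b is at -5.61 and Il1b at -2.97.

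The third comparison set repopulated against resident microglia at P60. In Saline offspring 8 of 9 genes rose with MG-REP, against 26.7% of all transcripts called and 11.9% called higher. The same 8 had no overlap between the groups, against 38.4% of all transcripts. The median difference of the 9 genes was 1.75, against -0.14 over all transcripts. With median-ratio scaling the split of called transcripts moved from 44.3% to 57.5% higher, and all 8 genes were still called.

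Il1b was at 2228, 2160 and 1744 TPM in the Saline + MG-REP libraries and at 263, 313 and 194 TPM in Saline + CTRL. The mean was 7.97 times higher, a rise of 3.01 ± 0.32 (limma adjusted p = 1.32e-07). Il1a was at 2104, 1716 and 1623 TPM against 524, 680.4 and 657 TPM, a mean 2.93 times higher and a rise of 1.55 ± 0.23 (limma adjusted p = 1.49e-05). Both cytokines thus rose together, but not to the same extent.

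The ratio of Il1b to Il1a in each library shows that difference. It was 1.06, 1.26 and 1.07 in Saline + MG-REP, so that Il1b exceeded Il1a there, and between 0.295 and 0.929 in the other 27 libraries. In MIA + MG-REP it was 0.319, 0.329 and 0.334, below the 0.429 to 0.4997 of MIA + CTRL. These ratios combine 2 of the genes and are given as a description.

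**Figure D3:**
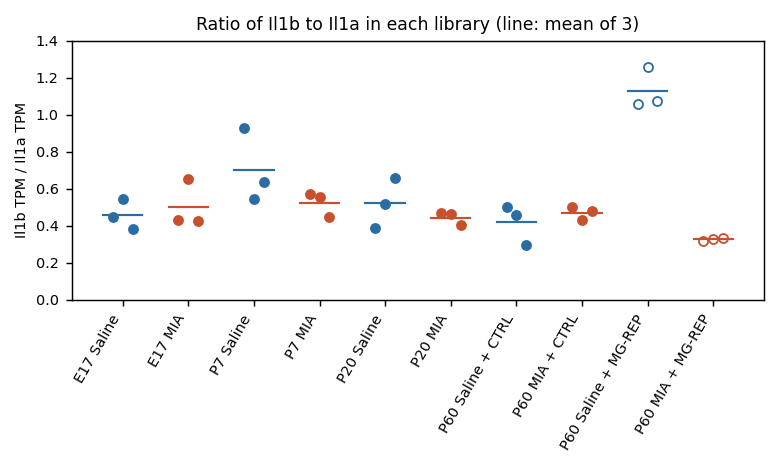
Ratio of Il1b TPM to Il1a TPM in each library, on a linear axis from 0, with lines at the mean of 3. Saline + MG-REP is the only group above 1, at 1.06 to 1.26, and MIA + MG-REP has the lowest mean, 0.327.

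Il1bos (NR_015474), a non-coding transcript on the opposite strand, shares 1263 bases with Il1b at chr2:129369902-129371164. It rose as well, from 5.76, 2.96 and 4.52 TPM to 15.9, 13.5 and 12.4 TPM, by 1.49 ± 0.22 (limma adjusted p = 1.66e-05). The libraries were not stranded, so reads in the shared bases cannot be told apart.

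The antagonist Il1rn rose from 0.36, 0.11 and 0.39 TPM to 3.47, 3.18 and 3.31 TPM, by 1.75 ± 0.25 (limma adjusted p = 8.49e-06). The CTRL values rest on an estimated 1 to 3 reads a library and the MG-REP values on 23 to 29. Even so, Il1b outnumbered this Il1rn transcript, 1 of 3 curated, by 527 to 679 times in the Saline + MG-REP libraries. The authors' count filter had to be passed in at least 3 libraries. Outside Saline + MG-REP, Il1rn had an estimated 18 to 28 reads in E17 Saline and at most 17 elsewhere. Its row may have passed the filter only through these 2 groups. Tests of Il1rn that involve them are thus not independent of the filter.

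Il12b had the widest change of the 9. It was at 314, 127 and 128 TPM in Saline + MG-REP and at 1.07, 0.44 and 1.07 TPM in Saline + CTRL, where an estimated 3 to 8 reads a library were counted. The rise was 6.56 ± 0.51 (limma adjusted p = 6.71e-10), and leaving out any 1 library kept it between 6.13 and 6.78. Across all 30 libraries, the next highest Il12b value was the 13.8 TPM of the third P20 Saline library.

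Tnf rose from 13.7, 18.1 and 12.1 TPM to 68.7, 52.4 and 47.8 TPM, by 1.88 ± 0.36 (limma adjusted p = 0.000347). Il10, the inhibitory cytokine, rose with the others, from 4.56, 2.53 and 3.53 TPM to 23.8, 12.1 and 9.64 TPM, by 1.76 ± 0.36 (limma adjusted p = 0.000605). Neither gene overlapped between the groups.

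The inflammasome genes changed less. Nlrp3 went from 204, 164 and 174 TPM to 383, 276 and 269 TPM, a rise of 0.76 ± 0.22 (limma adjusted p = 0.0102), still below its E17 and P7 Saline levels. Casp1 went from 79.1, 55.5 and 80.4 TPM to 109, 97.7 and 95.5 TPM, a rise of 0.50 ± 0.17 (limma adjusted p = 0.0293). The Casp1 call was lost without the second CTRL library (adjusted p = 0.198), without the first MG-REP library (0.122), with the Xist covariate (0.0753), under quantile normalization (0.0837) and in a fit of these groups alone (0.0929). Nlrp3 was not called without the first MG-REP library (difference 0.59, adjusted p = 0.0856). Il18 was the exception in direction, at 51.3, 94.9 and 125 TPM in MG-REP and 111, 159 and 122 TPM in CTRL, a difference of -0.60 ± 0.24 that was not called (limma adjusted p = 0.0662). Without the third MG-REP library it was called, with a fall of 0.88 (adjusted p = 0.00872).

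The first Saline + MG-REP library had the highest Il1a, Il1b, Il12b, Tnf, Il10 and Nlrp3 of the 3 and the lowest Il18. It also had the lowest summed monocyte and neutrophil markers of the 3 (92.9 TPM), the lowest summed microglial markers (27124 TPM, against 30629 and 30061 TPM) and the highest summed border macrophage markers (1525 TPM, against 862 and 881 TPM), and their part in its cytokine levels was not tested. The neutrophil-rich second library had Il1b at 2160 TPM and Il1a at 1716 TPM, between the other two. Without that library 8 of 9 genes were still called. Against the single Xist-high CTRL library, the MG-REP mean was 7.77 times higher for Il1b, 3.47 times for Il1a, 4.12 times for Tnf and 177 times for Il12b. With the Xist covariate 7 of the 8 calls remained, all but Casp1.

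Other markers moved in the same comparison, and their counts are to be read against 11.9% of all transcripts called higher and 14.9% called lower. Of 9 microglial markers 7 fell, among them P2ry12 from 3974 to 828 TPM in the mean and Sall1 from 659 to 132 TPM, while C1qa was at 8702 and 8875 TPM. Of 7 border macrophage markers Siglec1 rose from 18.1 to 191 TPM and Pf4 from 137 to 577 TPM, whereas Mrc1 (195 and 186 TPM) and Cbr2 (103 and 103 TPM) were not called and Cd163 fell from 0.54 to 0.02 TPM. The summed border macrophage markers were at 862 to 1525 TPM in MG-REP and 436 to 593 TPM in CTRL. Of 11 monocyte and neutrophil markers Ccr2 rose from 18.8 to 58.2 TPM and Plac8 fell from 24.6 to 11.3 TPM. Markers of dendritic cells, which can also make IL-12, summed to 62.4 to 88.2 TPM in MG-REP and 74.6 to 92.3 TPM in CTRL, with 0 of 8 transcripts higher and 2 lower. NK and T cell markers summed to 1.01 to 9.06 TPM against 5.46 to 23.1 TPM. In bulk libraries, a change in the share of a cell type and a change in RNA per cell cannot be told apart, and the part of these markers in the results was not tested.

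Immediate early genes are a group that tissue dissociation can induce. Of 11 such transcripts 7 fell with MG-REP in Saline offspring and none rose, against 14.9% of all transcripts lower and 11.9% higher, and their sum was 12574 to 18777 TPM in MG-REP against 30817 to 44433 TPM in CTRL. Fos was at 2742 TPM in the mean against 6445 TPM, and Egr1 at 1691 against 5192 TPM. Their part in the results was not tested.

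In MIA offspring the same comparison gave no call among the 9 genes, against 0.555% of all transcripts called by limma. The counts at an unadjusted p under 0.05 were 2 of the 9 genes and 882 of all transcripts. Il1b was at 282, 281 and 219 TPM in MIA + MG-REP and 256, 217 and 185 TPM in MIA + CTRL, a difference of 0.25 ± 0.32 (limma adjusted p = 0.979). The largest difference was in Tnf, at 21.9, 25.0 and 22.5 TPM against 14.5, 9.41 and 7.35 TPM, without overlap (1.12 ± 0.36, limma adjusted p = 0.298). Il1a also did not overlap, at 885, 854 and 656 TPM against 513, 506 and 386 TPM (0.77 ± 0.23, limma adjusted p = 0.217). Il12b was at 3.98, 2.35 and 1.65 TPM against 1.18, 1.00 and 1.31 TPM (0.71 ± 0.51, limma adjusted p = 0.978). With Il18, which was lower, 4 of the 9 genes had no overlap, against 17.8% of all transcripts.

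**Figure D4:**
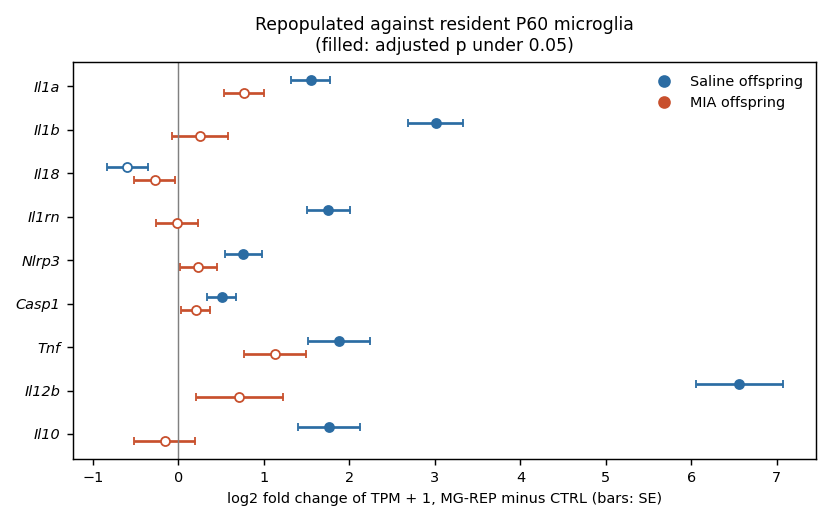
Difference between MG-REP and CTRL at P60 (log2 fold change of TPM + 1, bars are SE) for each gene in Saline (blue) and MIA (red) offspring, filled where the limma adjusted p is under 0.05. In Saline 8 of 9 points are filled, from 0.50 for Casp1 to 6.56 for Il12b, and in MIA none is.

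Compared directly after repopulation, 7 of 9 genes were lower in MIA than in Saline offspring, against 22.0% of all transcripts called and 11.0% called lower. The mean of Saline + MG-REP was 7.84 times that of MIA + MG-REP for Il1b (limma adjusted p = 2.72e-07), 71.3 times for Il12b (1.43e-08) and 2.27 times for Il1a (0.000511). Il1rn, Il10, Nlrp3 and Tnf were also lower, by 1.69, 1.54, 0.87 and 1.23 on the log2(TPM + 1) scale. Without the first Saline + MG-REP library Tnf (adjusted p = 0.0924) and Nlrp3 (0.0510) were not called, nor was Tnf without the first MIA + MG-REP library (0.0509). Casp1 (limma adjusted p = 0.0979) and Il18 (0.134) were not called, although Il18 was higher in MIA by 0.79 without the third Saline + MG-REP library (0.0207). Casp1 was called lower in a fit of these groups alone (adjusted p = 0.0308), and its libraries did not overlap. With it 8 of 9 genes had no overlap, against 42.7% of all transcripts. All 6 libraries of this comparison were Xist-high.

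Cell markers moved in this comparison too, and their counts are to be read against 10.9% of all transcripts called higher in MIA and 11.0% called lower. The summed microglial markers were at 42999 to 47923 TPM in MIA + MG-REP and 27124 to 30629 TPM in Saline + MG-REP, with 5 of 9 called higher in MIA and none lower. The summed border macrophage markers were at 308 to 427 TPM against 862 to 1525 TPM, with Pf4 lower by 2.73 and Siglec1 by 2.57 on the log2(TPM + 1) scale and the other 5 of 7 not called. Of 11 monocyte and neutrophil markers Ccr2 was lower, by 1.19, and none was higher. Of 8 dendritic cell transcripts Zbtb46 (0.96) and Cd209a (1.05) were higher, as were Gzma (1.79) and Gzmb (1.38) among 4 of NK and T cells. Of 11 immediate early transcripts 4 were higher in MIA and none was lower. The part of these markers in the difference was not tested.

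The test of the difference between the MG-REP effects of the 2 offspring groups called 4 of 9 genes, all with the smaller effect in MIA, against 10.5% of all transcripts called and 6.09% called lower. The difference of effects was -5.85 ± 0.72 for Il12b (limma adjusted p = 5.03e-06), -2.76 ± 0.46 for Il1b (0.000227), -1.77 ± 0.35 for Il1rn (0.00154) and -1.92 ± 0.51 for Il10 (0.0149). Il10 was not called without the first Saline + MG-REP library (-1.56, adjusted p = 0.0633) or under quantile normalization (0.0517). For Il1a (-0.78 ± 0.33, adjusted p = 0.140), Nlrp3 (-0.53 ± 0.30, 0.330), Casp1 (-0.30 ± 0.24, 0.532) and Tnf (-0.75 ± 0.51, 0.436) the effects were not shown to differ, although each was called in Saline and not in MIA. The comparisons that involve MG-REP share libraries with one another.

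The other genes of these pathways were taken from lists drawn up for receptors, inflammasome partners, signalling adaptors, feedback inhibitors and further cytokines. The counts for MG-REP against CTRL in Saline offspring are to be read against 11.9% of all transcripts called higher and 14.9% called lower, and those for the difference of effects against 10.5% called. Counts near these shares are not results about a list. Among 15 transcripts of other cytokines in Saline offspring, 3 rose and 4 fell with MG-REP, and their median difference was -0.17. Il23a, which encodes the p19 subunit that pairs with the Il12b product to form IL-23, was at 25.9, 8.01 and 11.1 TPM in MG-REP and 0.88, 0.81 and 0.72 TPM in CTRL, a rise of 2.99 ± 0.36 (limma adjusted p = 8.79e-07). Il12a, the IL-12 partner of Il12b, had no row. Ifnb1, which encodes interferon-β, was at 3.72, 7.07 and 6.75 TPM against 0, 0.36 and 0 TPM, a rise of 2.59 ± 0.41 (limma adjusted p = 3.21e-05). Its CTRL values lie at or near 0. Whether its row passed the authors' count filter only through Saline + MG-REP was not tested. Osm, a cytokine of the IL-6 family, rose from 164, 147 and 127 TPM to 384, 422 and 360 TPM, by 1.41 ± 0.32 (limma adjusted p = 0.0016).

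Cytokines fell in the same libraries. Il27, the p28 subunit of IL-27, was at 1.36, 5.41 and 3.49 TPM against 11.8, 9.76 and 14.8 TPM and fell by 1.67 ± 0.32 (limma adjusted p = 0.000361). Its partner Ebi3 was at 62.3 TPM in the mean against 56.5 TPM and was not called. Ltb fell by 1.23 and Il16 by 1.11. In MIA + MG-REP, Il23a was at 1.74, 0.72 and 0.18 TPM and Il27 at 14.1, 12.5 and 10.7 TPM. The MG-REP effect differed between MIA and Saline for Il23a (-3.01 ± 0.51, limma adjusted p = 0.000303), Il27 (2.07 ± 0.46, 0.00382) and Il16 (1.10 ± 0.31, 0.0251), and for 3 of 15 transcripts in all.

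Of 16 transcripts for cytokine receptors and decoys, 0 rose and 4 fell in Saline offspring, and the difference from the ligands was not tested. Il6st, which encodes the shared signalling receptor gp130 of the IL-6 family, was at 78.3, 123 and 117 TPM in MG-REP and 264, 325 and 339 TPM in CTRL, and fell by 1.55 ± 0.13 (limma adjusted p = 2.20e-09). Il1rl1, the IL-33 receptor, fell by 1.17 ± 0.25, and Il1rl2, the IL-36 receptor, by 0.65 ± 0.13. The signalling IL-1 receptor Il1r1 was at 0.35 to 0.57 TPM against 0.31 to 0.63 TPM. The decoy Il1r2 was at 14.6, 38.7 and 7.74 TPM against 5.31, 7.78 and 17.5 TPM, highest in the neutrophil-rich library.

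Of 16 transcripts for inflammasome partners, Il1bos was the 1 that rose in Saline offspring, and none fell. Pycard, the adaptor that links NLRP3 to caspase-1, was at 152, 118 and 116 TPM in MG-REP and 117, 96.4 and 134 TPM in CTRL. Nlrc4, another inflammasome gene, was at 10.1, 5.75 and 4.42 TPM against 3.80, 3.51 and 3.35 TPM and was not called (0.70 ± 0.27, limma adjusted p = 0.0545). Gsdmd, the pore protein of pyroptosis, was at 196 TPM in the mean against 231 TPM and was not called.

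Of 19 transcripts for adaptors, kinases and NF-κB subunits, 2 rose and 3 fell, near the shares of all transcripts. Rel, the c-Rel subunit, rose by 0.70 ± 0.20 (limma adjusted p = 0.0116) and a transcript of Nfkb2 by 0.59 ± 0.21 (0.0394). Rela fell by 0.57 ± 0.11 (limma adjusted p = 0.000224), Jak2 by 0.48 and Jak1 by 0.45.

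Of 13 transcripts for feedback inhibitors, 3 rose and 1 fell. Tnip3, a partner of the ubiquitin-editing enzyme A20, went from 1.74, 2.48 and 0.97 TPM to 22.3, 8.88 and 7.26 TPM, a rise of 2.22 ± 0.30 (limma adjusted p = 4.97e-06). Zc3h12a, which encodes the RNase Regnase-1 that degrades cytokine transcripts, rose from 115, 140.4 and 152 TPM to 246, 248 and 252 TPM, by 0.88 ± 0.20 (limma adjusted p = 0.0018). A transcript of Nfkbib rose by 0.88 ± 0.31 from a mean of 0.993 TPM. Zfp36, tristetraprolin, which destabilises Tnf transcripts, fell by 0.56 ± 0.21 (limma adjusted p = 0.0452). In the test between offspring groups Tnip3 differed (-2.09 ± 0.43, limma adjusted p = 0.00206), 1 of the 13.

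**Figure D5:**
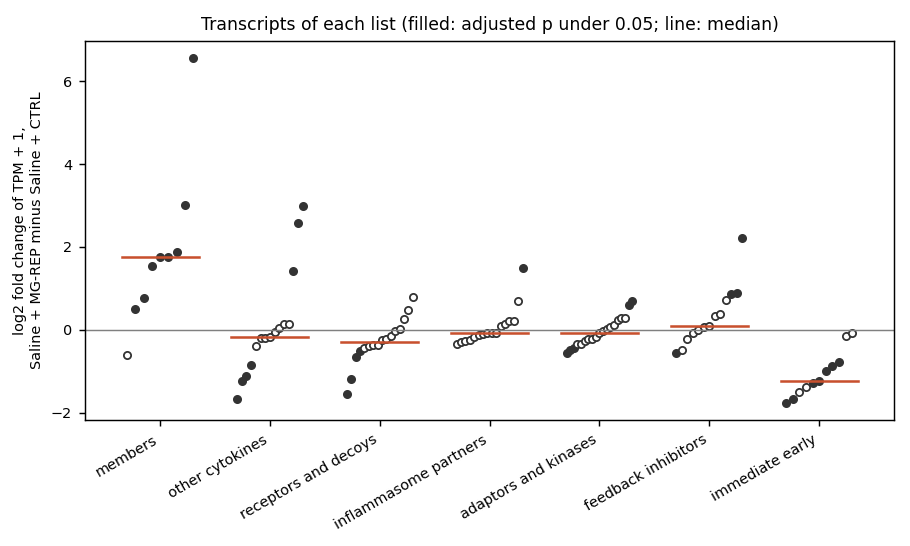
Difference between Saline + MG-REP and Saline + CTRL (log2 fold change of TPM + 1) for every transcript of the 9 genes and of 6 lists, sorted within each, filled where the limma adjusted p is under 0.05, with red lines at the medians. The 9 genes have a median of 1.75, and immediate early transcripts have a median of -1.23.

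For the Saline age steps, the called genes with the largest differences in each list are named as a description. Over all transcripts 4.32% were called from E17 to P7, 36.2% from P7 to P20 and 3.51% from P20 to P60. Called genes in a list are thus not a result about that list. From E17 to P7 the feedback inhibitors Nfkbia and 2 transcripts of Tnfaip3 rose, by 1.00 ± 0.18, 1.00 ± 0.25 and 0.96 ± 0.25. Il6st rose by 0.91 ± 0.13 and P2rx7 by 0.81 ± 0.20 in this step, while Ripk1 fell by 0.46 ± 0.10 and Tab2 rose by 0.39 ± 0.11. From P7 to P20, Il12rb1 rose by 2.03 ± 0.32, Il1rap by 1.14 ± 0.28 and Il10ra by 0.84 ± 0.22, while Il18rap fell by 1.59 ± 0.42 and Il12rb2 by 1.39 ± 0.23. In the inflammasome list Nlrp1b (NM_001040696) rose by 1.19 ± 0.21 and Casp4 fell by 0.97 ± 0.24. Of the feedback inhibitors Tnip3 rose by 1.49 ± 0.30, Socs3 by 1.19 ± 0.24 and Zfp36 by 0.57 ± 0.21, and Otulin fell by 0.45 ± 0.14. Among the adaptors Irak2, Traf6 and Jak1 rose by 0.83, 0.49 and 0.32, and Rel, Ripk1 and Nfkb2 (NM_019408) fell by 0.78, 0.67 and 0.57. Of the other cytokines Clcf1 and Osm rose by 0.84 and 0.81, and Csf3 and Ebi3 fell by 1.23 and 0.68. From P20 to P60 with control chow, Il23a fell by 1.72 ± 0.36, Osm by 1.38 ± 0.32, Il12rb1 by 1.73 ± 0.32, Bcl3 by 1.36 ± 0.29 and Rel by 0.76 ± 0.20, while Ltb rose by 1.18 ± 0.33, Il12rb2 by 0.97 ± 0.23 and Nlrp1b (NM_001162414) by 0.91 ± 0.25.

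The transcripts whose pattern was most like each gene were found by Pearson's r of log2(TPM + 1) over the 30 libraries, which share groups, and are given as a description. Il1b was most like Ptgs2 (r = 0.940), Bcl2a1b (0.922) and Metrnl (0.916), and Il1a like Bcl2a1b (0.902), Bcl2a1d (0.901) and Ptgs2 (0.899). Bcl2a1b and Bcl2a1d are near-identical paralogs, and their separate values are uncertain. Il12b was most like Ms4a6c (0.945), Ptgs2 (0.924) and Ptgs2os2 (0.914). Ptgs2, which encodes cyclooxygenase-2, was thus among the 3 closest to each of these 3 genes. Tnf was most like Arl5c (0.944), Nfkbid (0.888) and E230013L22Rik (0.882). Il10 was closest to Tgfbi (0.838), Mapkapk3 (0.799) and Fuca1 (0.797), and Il1rn to Ptpn7 (0.854), AI607873 (0.854) and Ppbp (0.851). Nlrp3 followed Etf1 (0.960), Nhp2 (0.951) and Rpl10a (0.950). Casp1 followed Fcer1g (0.921), Cyba (0.885) and Ptpn18 (0.864), and Il18 followed Foxo4 (0.910), Tvp23b (0.902) and Ckb (0.902). Il1a and Il1b had r = 0.893 with each other.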

How the data were processed

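CD11b-positive cells were sequenced as non-stranded poly(A) libraries in 30 samples of 10 groups. Per the labels and the study's methods, the authors used Rsubread for alignment against mm10 and featureCounts for counting, kept transcripts that passed a count filter in at least 3 libraries, and deposited TPM, so each value is relative to the sum of its library. The file also holds the authors' module assignment of each transcript, which is a finding of theirs and was not used. Depth was estimated from the step between low TPM values: 72.3 to 76.6% of low values lay within 0.2 of a whole read, too few to recover counts, so no count model was used. TPM was tested as log2(TPM + 1) with limma 3.58.1 in R 4.3.3, in 1 model of the 10 group means with a mean-variance trend and 20 residual degrees of freedom, two-sided, with Benjamini-Hochberg adjustment over 14225 transcripts at 0.05. A fold change on this scale understates that of low genes. The script was tested on simulated data. Members and lists were chosen with earlier results of these data known. Named genes were the members, up to 3 called rises and 3 called falls of each pathway list in MG-REP against CTRL (Saline) and in each Saline age step, the 3 transcripts most like each member, and Xist and Ddx3y. Other named genes (Il1r1, Il1r2, Ebi3, Pycard, Nlrc4, Gsdmd, and markers) were chosen after their values were seen. Same-numbered Saline and MIA libraries deviated together at P20 (all 3 correlations over 0.1). At the other ages only some pairs did, among them numbers 1 and 2 at E17 (0.404 and 0.656) and 1 and 3 of P60 CTRL (0.203 and 0.634). Alternatives were a pseudocount of 0.1, quantile normalization, median-ratio scaling, a filter at a mean TPM of 1, a replicate block, an Xist covariate, no trend, only the groups compared, and each library left out. Promoter sequences are from RefSeq (GRCm38.p6); 9 of 10 members matched, and Il10 is named only. Motifs were searched on both strands.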

Additional observations from a re-analysis of the deposited data

Results flagged for a closer look

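Genes whose MG-REP effect differed between MIA and Saline offspring by the test of the difference itself were Il12b (-5.85), Il1b (-2.76), Il10 (-1.92) and Il1rn (-1.77), each as MIA minus Saline on the log2(TPM + 1) scale. All 3 Saline + MG-REP libraries were above all 3 MIA + MG-REP libraries for each of them. The Il1rn levels outside Saline + MG-REP rest on an estimated 0 to 6 reads a library at P60. Its row may have passed the authors' count filter only through groups where it was high, so its difference is not independent of that filter. The difference for Il12b, Il1b and Il1rn was called by limma in each of the 8 other settings and in each of the 12 fits that left out 1 library.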

How the results depend on the processing

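Of 444 alternative values of called genes, 399 kept their direction and call, 45 kept their direction and lost the call, and none reversed. Of 202 alternative counts of called genes, 180 were within 1.5 times the reported count. From E17 to P7 in Saline, the count of 2 became 1 with a pseudocount of 0.1 and 0 to 2 with 1 library left out. From P7 to P20 in Saline, the count of 4 was 2 to 4 with 1 library left out, and in MIA the count of 3 was 1 to 2. From E17 to P7 in MIA, the count of 1 became 0 in a fit of the groups compared and 0 to 1 with 1 library left out. From P20 to P60 in Saline, the count of 0 was 0 to 2 with 1 library left out. From P20 to P60 in MIA, the count of 1 became 0 with median-ratio scaling, 0 with the Xist covariate and 2 in a fit of the groups compared, and was 0 to 1 with 1 library left out. The cause of these shifts was not tested.

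Over all ages the replicate number did not pair the samples (12 of 27 pairs had a correlation of deviations over 0.1, range -0.531 to 0.656, and 12 correlated best with their own number). At P20 alone, all 3 pairs of Saline and MIA libraries were over 0.1 (0.238, 0.104 and 0.132) and each correlated best with its own number. In that comparison the block, like the fit without it, called 0 of 9 genes and 0 of 14225 transcripts. With the replicate block Nlrp3, Tnf and Il12b were called lower from P20 to P60 in Saline, and the block changed no other call among the 9 genes.

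Counts over all transcripts moved more. The 3805 calls of MG-REP in Saline became 1911 in a fit of the groups compared and 2460 without the first MG-REP library. The 3124 calls between MIA and Saline after MG-REP became 1731, and the 1496 calls of the difference of effects became 963, without that library. The 499 calls from P20 to P60 in Saline became 115 with the Xist covariate and 5 in a fit of the groups compared, and the 370 in MIA became 111 with the covariate and 628 under quantile normalization. The 340 calls from E17 to P7 in MIA became 10 in a fit of the groups compared, and the 79 of MG-REP in MIA became 30 with the covariate. The share of calls that were higher went from 36.7% to 49.2% with median-ratio scaling for P7 to P20 in MIA, from 29.1% to 44.8% and from 39.5% to 51.6% for P20 to P60 in Saline and MIA, and from 71.5% to 58.2% under quantile normalization for E17 to P7 in Saline. Low depth limits Il1rn at P20 and P60 and Il12b in CTRL.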
